A study of Rattus norvegicus with 6 samples.

Results

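Cholesterol leaves cells and is carried back to the liver and into bile by a small set of proteins, and 10 of their genes were followed in liver RNA: Abca1, Abcg1, Abcg5, Abcg8, Scarb1, Lcat, Pltp, Soat2, Npc1 and Npc2. They were taken by symbol from the 32930 genes of the authors' table, each symbol had to match exactly, and all 10 were among the 18455 genes with enough reads to be tested. Liver RNA of 6 animals was sequenced. The HFD group (n = 3) received a high-fat diet and a vehicle, 0.5% CMC-Na. The HTG group (n = 3) received a high-fat diet and HTG, the Huazhuo Tiaozhi granule, a herbal preparation. The labels give the intervention as 12 weeks. In the paper's rat experiment the high-fat diet lasted 12 weeks, and HTG or vehicle was given only in the later part of that time. The treatment label of the HTG samples reads HCG, while their titles and the series design read HTG. No untreated or normal-diet library was analysed here, so every library came from an animal on the high-fat diet. The labels give no age, sex, strain or genotype. The study's methods for this assay name dyslipidaemic C57BL/6 J mice and the labels name rats, while the gene identifiers in the table are those of the mouse, and the values are given here under those mouse genes.

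High-density lipoprotein (HDL) is built and reshaped along a chain of steps. ABCA1 and ABCG1 pass cholesterol out of cells to HDL proteins and HDL particles, LCAT in plasma turns that cholesterol into esters, PLTP moves phospholipid between lipoproteins, and SR-BI, encoded by Scarb1, takes cholesteryl ester from HDL into hepatocytes. Inside the cell NPC2 and NPC1 hand cholesterol out of the lysosome and SOAT2 esterifies it, and at the canalicular membrane ABCG5 and ABCG8, which work as a pair, secrete sterols into bile. The liver X receptors (LXR) are known to raise the transcription of Abca1, Abcg1, Abcg5, Abcg8 and Pltp.

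Abcg5 and Abcg8 are neighbours transcribed in opposite directions. In the rat annotation their start sites lie head to head with a short stretch between them, which is shown because these genes had the highest log2 fold changes of the 10. It comes from the RefSeq table of rat promoters (build GRCr8, chr6:15717731-15717935, plus strand, 205 bases, 5′ to 3′), the labelled species, since no mouse sequence was used here. The capitals mark the motif AGATAA, the GATA box.

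Abcg5-Abcg8 between start sites: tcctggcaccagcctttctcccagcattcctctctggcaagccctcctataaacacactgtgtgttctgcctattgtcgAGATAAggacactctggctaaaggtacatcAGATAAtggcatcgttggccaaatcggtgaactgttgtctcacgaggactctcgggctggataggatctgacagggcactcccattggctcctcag

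Searched on both strands, the stretch held 2 GATA boxes. Of 33469 rat promoter windows of 300 bases, 11.6% held at least 1. It held 0 matches to the LXR direct repeat, AGGTCA and again AGGTCA with 4 bases of any kind between, which 0.00598% of the windows held, and 0 to the NR5A2 site CAAGGTCA, which 1.52% held. The windows each lie around 1 start site and are longer than the stretch, so the shares are only a rough background. The Abcg5 window, of the same 300 bases, held 2 GATA boxes and 0 matches to the other motifs. An exact LXR repeat was so rare in the windows that 0 was likely for any stretch. All of these are matches of letters and no binding was measured. A rat window was found for 7 of the 10 genes.

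The depth of the libraries was between 50648778 and 90563477 estimated counts. Low counts came in steps of about 4, so this was taken as 12662194 to 22640869 sequenced fragments. Every one of the 10 genes had at least 704 counts in every library, far above the limit of 12 counts (3 fragments, counting error only) that an empty gene allows. Across all genes, which are not independent replicates, the correlation of log2 levels between any pair of libraries lay between 0.951 and 0.982. The tissue label was checked against 10 hepatocyte markers, which were all tested. Their summed FPKM, fragments scaled by transcript length and by the size of the library, was 43650 to 48260 in HFD libraries, against 33470 to 37390 in the HTG libraries, without overlap. Alb was the largest part of this sum, with a mean FPKM of 24535 and a log2 fold change of -0.28 (unadjusted p = 0.33, edgeR). The sum is therefore mostly a reading of Alb. Taken singly, 9 of the 10 markers had a log2 fold change below 0, with a median of -0.44 (edgeR). They ran from -1.62 for Cps1 to 0.06 for Ttr. At an unadjusted p under 0.05 (edgeR), 3 were lower and 0 higher, and for 5 the HTG values lay below all HFD values. Of all 18455 genes tested, 8933 had a log2 fold change below 0. Mitochondrial genes took 4.97% to 6.45% of the counts in the HFD group and 9.31% to 15.2% in the HTG group, also without overlap. Summed markers of sinusoidal endothelium (17.18 to 48.11 against 27.51 to 49.92), stellate cells (22.63 to 38.42 against 21.19 to 30.13), cholangiocytes (49.46 to 61.44 against 33.21 to 66.49) and leukocytes (55.57 to 78.08 against 35.32 to 92.48) overlapped between the groups. Spp1 (mean FPKM 46.8) dominated the cholangiocyte sum, and S100a9 (45.7) and S100a8 (13.2) the leukocyte sum. At an unadjusted p under 0.05 (edgeR), 1 of 10 endothelial markers was higher and 0 lower. Of 8 stellate and of 6 cholangiocyte markers, 1 each was higher and 1 lower, and of 7 tested leukocyte markers 0 differed. The shares of all genes are given below. The part of the hepatocyte markers and of mitochondrial RNA in the results below was not tested. Leaving out the mitochondrial genes left each call on the 10 genes as it was. That step mainly rescales the other genes, so it cannot test this part. In bulk tissue fewer cells of a type and less RNA per cell cannot be told apart.

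Between the groups, Abcg5 and Abcg8 were higher and Npc2 was lower in the HTG group, and for the other 7 genes the difference did not pass an unadjusted p of 0.05. Levels are given as FPKM. The log2 fold changes (HTG over HFD), their standard errors and p-values come from edgeR's quasi-likelihood test on the counts, and adjusted p-values from the Benjamini-Hochberg method over all genes tested. At an adjusted p under 0.05, 0 of the 10 genes passed, where 0.0108% of all genes did. At an adjusted p under 0.1, 2 passed (Abcg5 and Npc2), against 10.8% of all genes. At an unadjusted p under 0.05, 2 were higher and 1 was lower, where 12.3% of all genes were higher and 12.4% lower. For 5 genes the scaled counts of both groups lay apart without overlap, 3 higher (Abcg5, Abcg8 and Soat2) and 2 lower (Scarb1 and Npc2), against 16.5% and 15.5% of all genes. With so few genes these shares are not far from the background. The median log2 fold change was -0.11 over the 10 genes and 0.03 over all genes tested. DESeq2 put 3 genes, Abcg5, Abcg8 and Npc2, at an adjusted p under 0.05.

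**Figure D1:**
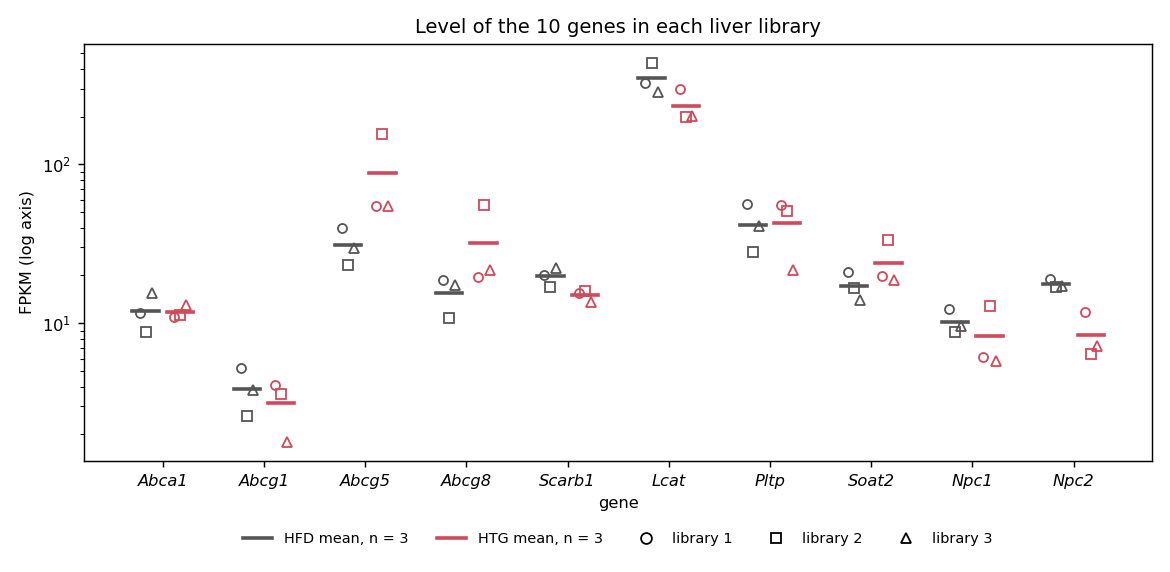
FPKM (log axis) of the 10 genes in each of the 6 liver libraries, grey for HFD and red for HTG, with a symbol for each library number and a line at each group's mean (n = 3). Lcat lies far above the rest in both groups, the HTG points of Abcg5 and Abcg8 lie above all HFD points with library 2 on top, and the HTG points of Npc2 and Scarb1 lie below all HFD points.

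**Figure D2:**
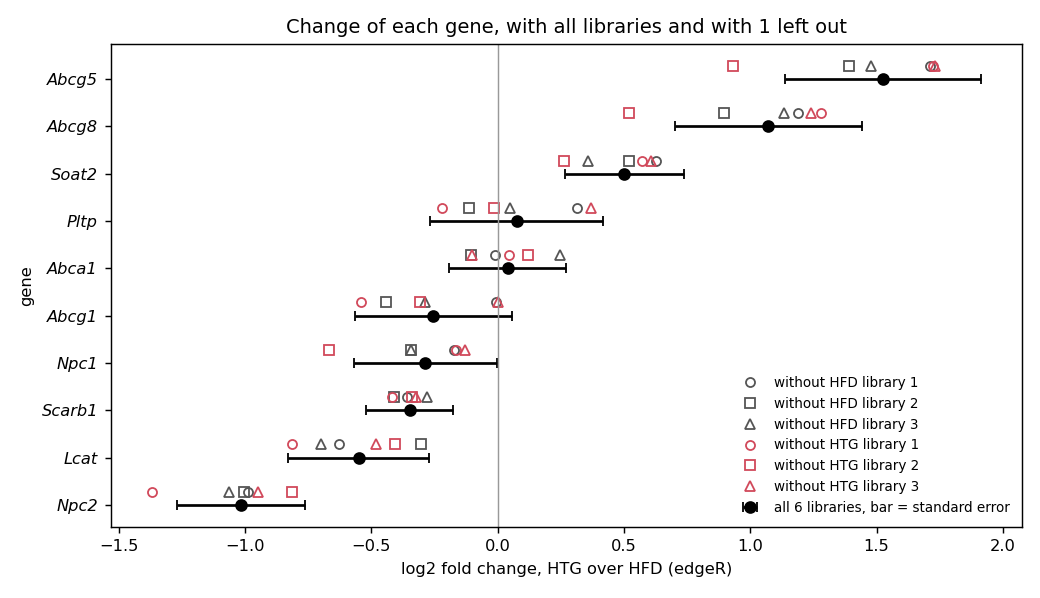
log2 fold change of each gene, HTG over HFD, from edgeR's quasi-likelihood test. Black points use all 6 libraries with their standard error, and open symbols leave out 1 library each. Leaving out HTG library 2 moves Abcg5 from 1.52 to 0.93 and Abcg8 from 1.07 to 0.52, and the open symbols of Npc2 stay between -1.37 and -0.81.

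The levels of the 10 genes spanned a wide range. In the HFD group Lcat had the highest FPKM, 349 ± 77.0 (SD, n = 3), and Abcg1 the lowest, 3.88 ± 1.33 (SD, n = 3). Pltp and Abcg5 followed Lcat with overlapping ranges. Scarb1, Npc2, Soat2, Abcg8, Abca1 and Npc1 came next, and each of these overlapped its neighbour in that order. In the HTG group Lcat was again highest and Abcg1 lowest. Abcg5 stood in second place there, with a range that overlapped that of Pltp. Npc2 had rank 5 in the HFD order and rank 8 in the HTG order, next to Npc1. Lcat alone made up 61.6%, 76.6% and 62.6% of the summed FPKM of the 10 genes in HFD livers 1, 2 and 3, against 60.2%, 36.5% and 55.8% in HTG livers 1, 2 and 3. The share in HTG library 2 was the lowest of the 6, and this library also had the highest Abcg5.

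Abcg5 and Abcg8, the sterol exporters of the canalicular membrane, are listed on opposite strands of chromosome 17, Abcg5 (ENSMUSG00000040505) from 84965662 to 84990439 and Abcg8 (ENSMUSG00000024254) from 84983730 to 85007761. The table names no mouse build for its coordinates. The listed spans share 6710 bases, so that each gene's listed start lies within the span of the other, unlike in the rat stretch shown above. The libraries mark the strand, but the sources used here do not say whether the counting used it, so reads in the shared stretch may be split between both genes. Abcg5 had an FPKM of 39.78, 23.44 and 29.84 in HFD livers 1, 2 and 3, against 54.79, 155.05 and 54.84 in HTG livers 1, 2 and 3. All 3 HTG values were above all 3 HFD values, and HTG library 2 was far above the other two. The log2 fold change was 1.52 (standard error 0.39, unadjusted p = 0.00406, adjusted p = 0.0704, edgeR), a 2.88-fold higher level. Without HTG library 2 it was 0.93 (unadjusted p = 0.00504, adjusted p = 0.198, edgeR), and the groups still did not overlap. Over every alternative of scaling, filter, tool and left-out library, the unadjusted p of Abcg5 lay between 2.6e-05 and 0.025.

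Abcg8 had an FPKM of 18.65, 10.80 and 17.32 in the HFD livers, against 19.52, 55.40 and 21.77 in the HTG livers. The groups did not overlap, but HTG library 1 was close to HFD library 1. The log2 fold change was 1.07 (standard error 0.37, unadjusted p = 0.0192, adjusted p = 0.126, edgeR). This call was lost under several alternatives. Without HTG library 2 it was 0.52 (unadjusted p = 0.0677, edgeR) and without HFD library 2 it was 0.89 (unadjusted p = 0.0655, edgeR), while the other 4 single omissions kept it under 0.05. It was also lost with the replicate number as a block (unadjusted p = 0.0592, edgeR) and in 3 limma fits on FPKM, where the highest unadjusted p was 0.0879.

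The level of Abcg5 relative to that of Abcg8 was higher in each HTG liver than in any HFD liver. The FPKM of Abcg5 over that of Abcg8 was 2.13, 2.17 and 1.72 in HFD livers 1, 2 and 3, against 2.81, 2.80 and 2.52 in HTG livers 1, 2 and 3. HTG library 2, with the highest level of both genes, had the same ratio as HTG library 1 to within 0.01. The mean log2 ratio was 0.999 ± 0.186 (SD, n = 3) for HFD livers and 1.44 ± 0.0889 (SD, n = 3) for HTG livers, a difference of 0.437 with an exact two-sided permutation p of 0.1, the smallest that this permutation test can give with 3 against 3.

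**Figure D3:**
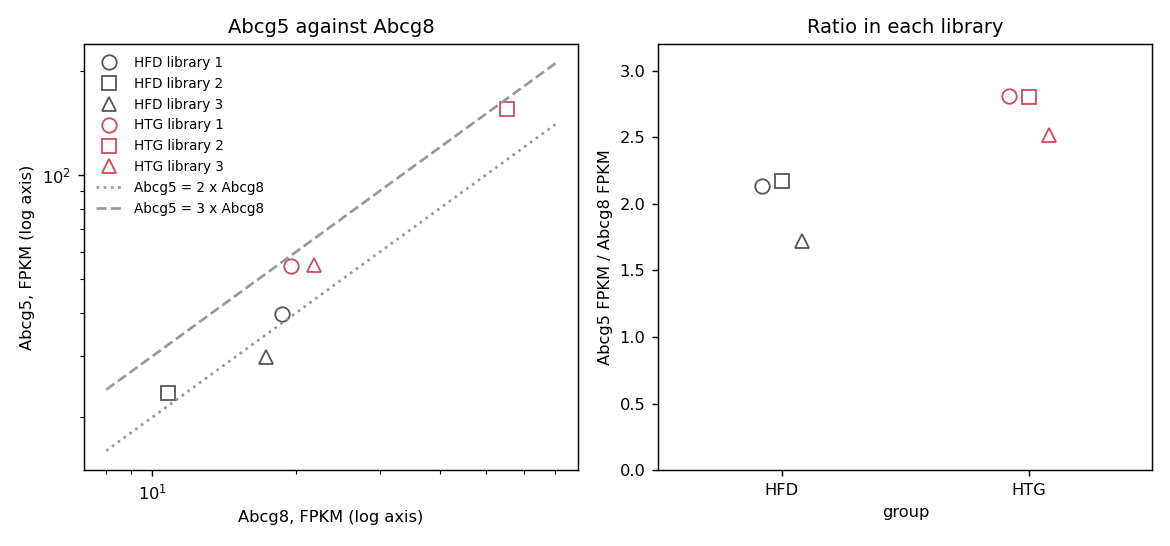
Left, Abcg5 against Abcg8 in FPKM on log axes, 1 symbol for each library, with dotted and dashed guides where Abcg5 is 2 and 3 times Abcg8. Right, the ratio of both in each library by group. HFD libraries lie between 1.72 and 2.17 and HTG libraries between 2.52 and 2.81, with HTG library 2 at the upper end of both axes on the left.

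The transporters of HDL formation gave no such difference. Abca1, on chromosome 4, had an FPKM of 11.55, 8.85 and 15.58 in the HFD livers, against 10.95, 11.30 and 13.13 in the HTG livers, so all HTG values lay within the HFD range. Its log2 fold change was 0.04 (standard error 0.23, unadjusted p = 0.87, edgeR). Abcg1, on chromosome 17, which is known to be expressed in macrophages, had 5.26, 2.61 and 3.78 in the HFD livers, against 4.08, 3.61 and 1.79 in the HTG livers. The groups overlapped, with a log2 fold change of -0.25 (standard error 0.31, unadjusted p = 0.435, edgeR). The sign of both changed with 1 library left out, over -0.11 to 0.25 for Abca1 and -0.54 to 0.00 for Abcg1. Beside these values, 12 Kupffer cell and macrophage markers held, at an unadjusted p under 0.05, 0 higher and 2 lower genes, and their summed FPKM was 445.5 to 872.1 in the HFD group and 339.8 to 649 in the HTG group. The part of macrophage content in the level of Abcg1 was not tested.

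Scarb1, the HDL receptor, on chromosome 5 from 125354151 to 125418158, had an FPKM of 20.16, 16.85 and 22.23 in the HFD livers, against 15.51, 15.97 and 13.58 in the HTG livers. All HTG values were below all HFD values, and the gap between the nearest pair was smaller than the spread within the HFD group. The log2 fold change was -0.35 (standard error 0.17, unadjusted p = 0.0767, adjusted p = 0.255, edgeR), which did not pass the test. Its direction was the same with each library left out, from -0.42 to -0.28.

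Neither Lcat nor Pltp, which encode plasma proteins that act on HDL, passed the test. Lcat, on chromosome 8 from 106666183 to 106670014, had an FPKM of 326.47, 434.78 and 285.76 in the HFD livers, against 299.27, 198.58 and 200.18 in the HTG livers. HTG library 1 lay inside the HFD range and HTG libraries 2 and 3 below it. The log2 fold change was -0.55 (standard error 0.28, unadjusted p = 0.0831, adjusted p = 0.266, edgeR). It was -0.82 (unadjusted p = 0.0207, adjusted p = 0.123, edgeR) without HTG library 1 and -0.30 (unadjusted p = 0.299, edgeR) without HFD library 2, so single libraries set its size. Pltp, on chromosome 2, had 56.06, 27.97 and 41.19 in the HFD livers, against 55.55, 51.19 and 21.80 in the HTG livers. Both groups ran from under 30 to over 50, and the log2 fold change was 0.08 (standard error 0.34, unadjusted p = 0.829, edgeR), with either sign when 1 library was left out (-0.22 to 0.37). Its listed span shares 502 bases with Ctsa on the other strand.

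Soat2, the cholesterol esterifying enzyme of hepatocytes and enterocytes, on chromosome 15 from 102058961 to 102071904, had an FPKM of 20.92, 16.62 and 14.09 in the HFD livers, against 19.80, 33.26 and 18.72 in the HTG livers. In FPKM the groups overlapped, since HFD library 1 was above HTG libraries 1 and 3. In CPM, the counts over each library's total after edgeR's TMM scaling, they did not, with 46.2, 40.7 and 31.4 in the HFD group and 47.0, 72.8 and 47.6 in the HTG group, and the gap between HFD library 1 and HTG library 1 was small. The log2 fold change was 0.50 (standard error 0.23, unadjusted p = 0.0634, adjusted p = 0.23, edgeR) and 0.26 without HTG library 2 (unadjusted p = 0.26, edgeR). For Soat2, Abcg5 and Abcg8 alike, HTG library 2 had the highest value of the 6.

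Of the lysosomal pair, Npc2 passed an unadjusted p of 0.05 and Npc1 did not, and the difference between both genes was not tested. Npc2, the soluble carrier that binds cholesterol inside the lysosome (ENSMUSG00000021242, chromosome 12 from 84801336 to 84819926), had an FPKM of 19.13, 16.90 and 17.15 in the HFD livers, against 11.70, 6.43 and 7.23 in the HTG livers. The HFD values lay close together and all HTG values were below them. The log2 fold change was -1.02 (standard error 0.25, unadjusted p = 0.00351, adjusted p = 0.0673, edgeR), a 2.02-fold lower level. It stayed between -1.37 and -0.81 with each library left out, and without HTG library 1 the adjusted p was 0.0414 (edgeR). Counts and FPKM of Npc2 imply a transcript of 5.63 to 5.81 kilobases, which enters its level relative to other genes but not the comparison of groups.

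Npc1, the membrane protein that takes cholesterol from NPC2, on chromosome 18, had an FPKM of 12.24, 8.80 and 9.68 in the HFD livers, against 6.17, 12.85 and 5.81 in the HTG livers. HTG libraries 1 and 3 were below all HFD values and HTG library 2 above them. With all libraries the log2 fold change was -0.29 (standard error 0.28, unadjusted p = 0.34, edgeR). Without HTG library 2 it was -0.67 (unadjusted p = 0.0134, adjusted p = 0.217, edgeR), and it was below 0 in every alternative run (-0.67 to -0.13). Its listed span shares 967 bases with Rmc1 on the other strand.

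Further genes of the pathway were taken from pathway lists, described here by their counts at an unadjusted p under 0.05 (edgeR) and their medians, beside the shares of all genes given above. None of the genes named from these lists had an adjusted p under 0.05 in the edgeR fit reported here. Outside the 10, genes were named for their level or for a small p in these same libraries, so counts among them run high. Of the 47 named genes, the 10 included, 22 were under an adjusted p of 0.05 with DESeq2 and 9 without HTG library 1. Over all genes, 2104 of 29720 tested were under it with DESeq2 and 653 of 19304 without HTG library 1. It was passed by 8 with counts divided by 4, 7 with at least 10 counts in every library and 2 without a filter on low counts. In the same order, 822 of 14884, 684 of 15454 and 162 of 29763 of all genes tested passed it. With limma, 45 of them were tested above a minimum mean FPKM of 1. There 14 were under it on log2(FPKM + 1) and 2 on log2(FPKM + 0.1), against 873 and 83 of all 10930 genes tested. Among 11 HDL proteins and plasma enzymes, 3 were higher and 4 lower, with a median log2 fold change of -0.13. The 3 higher were apolipoproteins of HDL. Apoa1, its main structural protein, had an FPKM of 6345.22, 5064.64 and 5412.16 in the HFD livers, against 11150.70, 14645.73 and 12599.58 in the HTG livers. The groups were far apart, with a log2 fold change of 1.24 (standard error 0.25, adjusted p = 0.0582, edgeR). Apoc1, which is known to inhibit lipid transfer and lipases, had 1.36 (adjusted p = 0.0582, edgeR), and Apoa2, another structural protein of HDL, had 0.85 (adjusted p = 0.104, edgeR). Apoa4, an apolipoprotein of chylomicrons and HDL, had -1.07 (adjusted p = 0.0582, edgeR). Apom, the carrier of sphingosine-1-phosphate on HDL, had -1.14 (adjusted p = 0.0671, edgeR). Pon3, an HDL-bound lactonase, had -0.69 (adjusted p = 0.0769, edgeR). The list thus held genes in both directions.

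Among 8 genes for LXR, RXR and their cofactors, 0 were higher and 1 was lower, with a median of -0.08. The lower gene was Rxra, the partner with which LXR binds DNA, with an FPKM of 60.69, 61.59 and 59.86 in the HFD livers, against 40.71, 33.86 and 31.99 in the HTG livers. Its HFD values were nearly equal and its HTG values all lower, at -0.73 on the log2 scale (adjusted p = 0.0785, edgeR). Nr1h3, which encodes LXR alpha, had a log2 fold change of -0.21 (unadjusted p = 0.302, edgeR). Among 7 LXR targets outside the 10 genes, 0 were higher and 1 was lower, with a median of -0.57. Smpdl3a, a secreted phosphodiesterase, had -1.45 (adjusted p = 0.0538, edgeR). Srebf1, which encodes the lipogenic factor SREBP-1, had 0.79 (unadjusted p = 0.193, edgeR). Scd1, a fatty acid desaturase, had an FPKM of 540.04, 131.50 and 2861.60 in the HFD livers, against 182.88, 220.29 and 543.75 in the HTG livers, and its log2 fold change of -1.78 (unadjusted p = 0.0978, edgeR) became 0.01 without HFD library 3. Without HFD library 2 the list had 3 lower genes, without HTG library 1 it had 2, and without HFD library 3 it had 1 higher. At an unadjusted p under 0.05 (edgeR), Abcg5 and Abcg8 were higher with all libraries, and the Abcg8 call was lost under several alternatives. Abca1, Abcg1, Pltp and the other LXR targets tested were not higher at that threshold. The difference between these genes was itself not tested, and neither was any part of LXR in their levels.

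The lysosomal and non-vesicular cholesterol transport list, to which Npc1 and Npc2 stand closest, had 2 of 22 genes higher and 12 lower, with a median log2 fold change of -0.48. The groups did not overlap for 14 lower genes. Lipa, the lysosomal acid lipase that frees cholesterol from its esters, had an FPKM of 16.94, 23.38 and 25.42 in the HFD livers, against 11.22, 6.14 and 4.64 in the HTG livers. All HTG values were below all HFD values, and the log2 fold change was -1.54 (adjusted p = 0.0606, edgeR). Scarb2, a lysosomal membrane protein with a cholesterol tunnel, had -1.26 (adjusted p = 0.0659, edgeR), Lamp1, a main glycoprotein of that membrane, had -1.12 (adjusted p = 0.0671, edgeR), and Igf2r, which sorts enzymes to lysosomes, had -0.89 (adjusted p = 0.0582, edgeR). The 2 higher genes, Gramd1a and Gramd1c, encode carriers of plasma membrane cholesterol to the endoplasmic reticulum, with log2 fold changes of 0.61 (adjusted p = 0.109, edgeR) and 0.77 (adjusted p = 0.134, edgeR). Without HTG library 3, 0 genes of the list were higher, and 1 was when HFD library 1, HFD library 2 or HTG library 2 was dropped. At the same threshold, 8 to 13 were lower over all alternatives. Scp2, the sterol carrier with the highest level of the list, had -0.06 (unadjusted p = 0.806, edgeR). Npc2 was lower, as were Lipa, Scarb2, Lamp1 and Igf2r, but not every gene of this kind passed. Mcoln1 had 0.33 (unadjusted p = 0.141, edgeR), Stard3 -0.34 (unadjusted p = 0.103, edgeR) and M6pr -0.34 (unadjusted p = 0.0753, edgeR). A joint change of lysosomal genes was not tested. Hepatocyte markers had 3 of 10 lower and 0 higher in the same libraries, and the share of cell content in these differences was not tested.

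**Figure D4:**
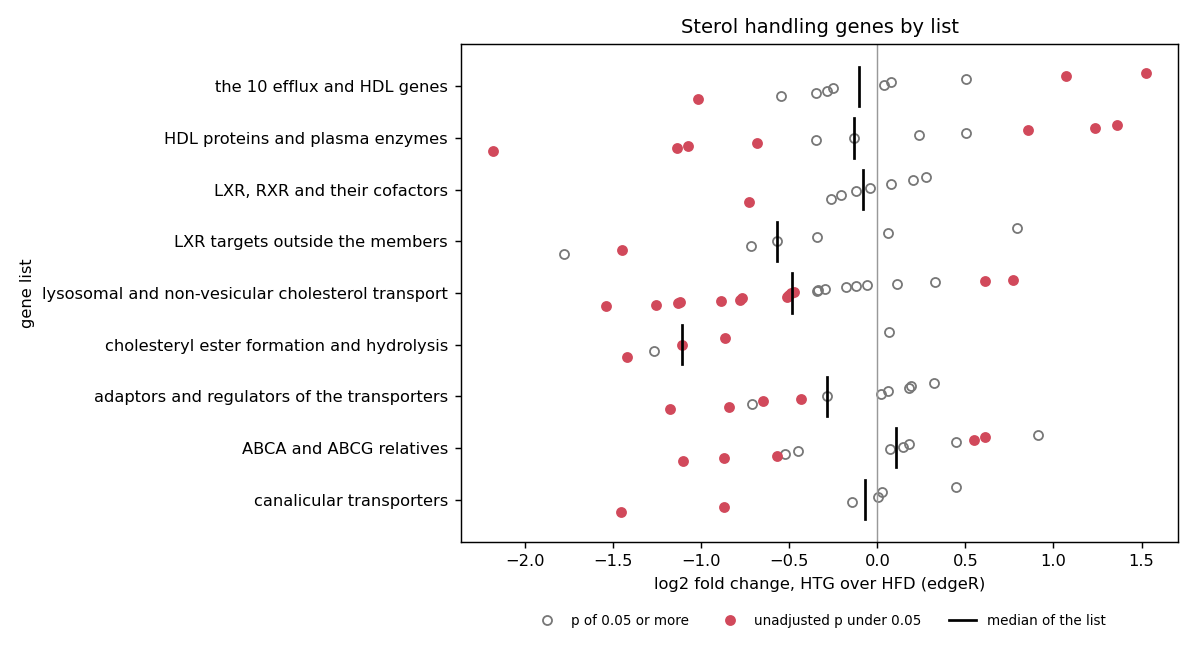
log2 fold change, HTG over HFD (edgeR), of each tested gene of the 10 and of 8 further lists. Filled red points have an unadjusted p under 0.05, open points do not, and the bar is the list's median. The lysosomal transport list has 12 filled points below 0 and 2 above, the HDL proteins have filled points on both sides, and the 10 genes have 2 above and 1 below.

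Of the 5 tested genes of cholesteryl ester formation and hydrolysis other than Soat2, 0 were higher and 3 lower, with a median of -1.11. Soat1, the esterifying enzyme found in most cells, had an FPKM of 1.81, 1.16 and 1.88 in the HFD livers, against 0.96, 0.87 and 0.73 in the HTG livers. All HTG values were lower, with a log2 fold change of -0.86 (adjusted p = 0.0644, edgeR), while Soat2 had 0.50. The hydrolases Ces1g and Nceh1 had -1.42 (adjusted p = 0.0582, edgeR) and -1.11 (adjusted p = 0.101, edgeR), and the carboxylesterase Ces1d, with the highest level of the list, had -1.27 (unadjusted p = 0.0675, edgeR).

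Among 11 adaptors and regulators of the transporters, 0 were higher and 4 lower, with a median of -0.29. Pdzk1, the scaffold that holds SR-BI at the hepatocyte surface, had an FPKM of 10.16, 9.02 and 14.08 in the HFD livers, against 7.21, 4.47 and 6.05 in the HTG livers. Like Scarb1, it had all HTG values below all HFD values, with a log2 fold change of -0.84 (adjusted p = 0.0937, edgeR). Foxo1, a factor known to act on Abcg5 and Abcg8, had -0.65 (adjusted p = 0.0937, edgeR), and Cav1, the coat protein of caveolae, had -1.18 (adjusted p = 0.146, edgeR). Hnf4a, a liver factor, had -0.71 (unadjusted p = 0.0931, edgeR), and Slc9a3r1, a scaffold of membrane transporters, had 0.02 (unadjusted p = 0.937, edgeR). Without HFD library 2 or without HTG library 1, 2 of the list were lower.

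Of the 12 tested ABCA and ABCG relatives, 2 were higher and 3 lower, with a median of 0.11. Abca8b and Abca7 had log2 fold changes of 0.61 (adjusted p = 0.0749, edgeR) and 0.55 (adjusted p = 0.131, edgeR). Abca6 had -1.10 (adjusted p = 0.0538, edgeR), Abca3, the lipid pump of lamellar bodies in lung, had -0.87 (adjusted p = 0.0922, edgeR) and Abca8a had -0.57 (adjusted p = 0.184, edgeR). Abcg2, a drug and urate exporter of the same subfamily as Abcg5 and Abcg8, had -0.45 (unadjusted p = 0.116, edgeR). The count of higher relatives was 4 without HFD library 3, and it was 1 when library 1 of either group or HTG library 2 was dropped. Among 6 other canalicular transporter genes, 0 were higher and 2 lower, with a median of -0.07. Abcb4, which moves phosphatidylcholine into bile beside the sterols of ABCG5 and ABCG8, had an FPKM of 17.71, 37.57 and 18.30 in the HFD livers, against 15.20, 13.90 and 10.76 in the HTG livers. All HTG values were below all HFD values, with a log2 fold change of -0.87 (adjusted p = 0.165, edgeR), and Abcb1a, a drug exporter, had -1.46 (adjusted p = 0.0936, edgeR). Abcb11, the bile salt pump, had -0.14 (unadjusted p = 0.56, edgeR) and Abcc2, the exporter of conjugates, had 0.00 (unadjusted p = 0.997, edgeR). With library 2 of either group or HTG library 3 dropped, 1 gene of this list was lower.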

How the data were processed

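Total RNA of 6 livers was poly(A) selected and sequenced as paired-end, strand-marked libraries. The submitters' processing notes name HISAT2, StringTie and SAMtools without versions and the rat build mRatBN7.2, whereas the table holds mouse gene identifiers. For each gene and library the authors deposited an estimated count, a whole number that is not scaled between libraries, and an FPKM, which they scaled by transcript length and library total. Counts were used as deposited. Groups came from the labels. Nothing says more of the replicates than that each was an animal.

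The main test was edgeR 4.0.16 in R 4.3.3 (TMM, filterByExpr, glmQLFit and glmQLFTest, group only), with Benjamini-Hochberg adjustment over the 18455 genes. Alternatives were DESeq2 1.42.0, limma 3.58.1 on log2(FPKM + 0.1) or log2(FPKM + 1), with a minimum mean FPKM of 1 or none, other filters and scalings, counts divided by 4, the mitochondrial genes or each library left out, and the replicate number as a block. A fold change from limma is on the log2(FPKM + pseudocount) scale. The scripts were tested on simulated data.

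The 10 genes and the lists were chosen with earlier results of these data known. From each list the text names the 2 genes with the highest mean FPKM and, in each direction, up to 3 with the smallest p among those with an unadjusted p under 0.05. Markers of cell types are instead given as sums and counts, with the largest genes of some sums named. If a symbol had several entries, that with the most counts was used. Columns of the authors' own comparisons were not used.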

Additional observations from a re-analysis of the deposited data

How the results depend on the processing

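With 3 libraries a group, several counts over the 10 genes changed with the processing. Abcg5 and Npc2 were under an unadjusted p of 0.05 in all 18 alternatives, and Abca1, Abcg1 and Pltp in 0. Of the 10, 2 were higher at an unadjusted p under 0.05, and 1 was with the replicate block and in each of 3 limma fits, Abcg8 being the call lost (1 to 2 with 1 library left out). Of the 10, 1 was lower, but 2 were with DESeq2 and with limma on log2(FPKM + 0.1) and 3 with limma on log2(FPKM + 1) (1 to 2 with 1 library left out). At an adjusted p under 0.05 there were 0, but 3 with DESeq2 and 1 with limma on log2(FPKM + 1) (0 to 1 with 1 library left out). At an adjusted p under 0.1 there were 2, but 3 with DESeq2 and with at least 10 counts in every library, and 0 with the replicate block and with unfiltered limma (0 to 3 with 1 library left out, and 0 in each omission except that of HTG library 1). The cause was not tested. Genes without overlap numbered 2 to 3 higher and 2 to 3 lower over the alternatives, and the median of the 10 lay between -0.21 and -0.01. The log2 difference of the Abcg5 to Abcg8 ratio was 0.450 with a pseudocount of 1 and 0.330 to 0.497 with 1 library left out. With counts it was 0.437, which is no separate check. The length ratio that relates counts to FPKM is nearly the same in every library. The number of all genes at an adjusted p under 0.05 was 2 with edgeR and 2104 with DESeq2, with 0 to 2104 over all alternatives. The labels do not say that replicate numbers pair the samples. Correlations of deviations were -0.15, -0.12 and 0.21 for equal numbers, and between -0.208 and 0.318 for unequal numbers. With 3 libraries a group these values cannot exclude a pairing. With the replicate block the adjusted p of Abcg5 was 0.162 and of Npc2 0.143 (edgeR).

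Over the 47 named genes and all alternatives, 744 of 842 values kept direction and side of an adjusted p of 0.05, 64 passed it (22 with DESeq2) and 34 changed sign. Beside genes near 0, Abcg1 and Scd1 changed sign. With limma Pltp had -0.0195, -0.0172 and -0.0195, Slc9a3r1 -0.00357, -0.00396 and -0.00357, and Abcc2 -0.0784, -0.0761 and -0.0784. Slc9a3r1 had -0.0104 with DESeq2, -0.004975 with DESeq2's size factors and -0.0121 with library totals only. Abcc2 had -0.0272 with DESeq2, -0.00707 without filter, -0.0251 with DESeq2's size factors, -0.00259 without mitochondrial genes and -0.0329 with the replicate block. With 1 library left out, the ranges were -0.106 to 0.245 for Abca1, -0.541 to 0.00086 for Abcg1, -0.218 to 0.368 for Pltp, -2.52 to 0.0123 for Scd1, -0.248 to 0.0371 for Scp2, -0.179 to 0.189 for Slc9a3r1, -0.329 to 0.00225 for Abcb11 and -0.236 to 0.139 for Abcc2.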

Other observations

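Apoe, named here after its values were seen, encodes an apolipoprotein of HDL and remnant lipoproteins and a known product of hepatocytes. Its FPKM was 29.42, 39.90 and 14.11 in HFD livers 1, 2 and 3, against 45.81, 45.31 and 26.52 in HTG livers 1, 2 and 3. Its neighbour Apoc1 was 36.6 to 132 times higher in the same libraries. Counts of Apoe lay between 2186 and 9371, so the depth does not limit this ratio. The labels give no genotype.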
